A study of Mus musculus with 10 samples.

Results

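The IFIT, Mx and ISG15 antiviral effectors are 10 genes chosen by name: Ifit1, Ifit2, Ifit3, Ifit3b, Isg15, Usp18, Mx1, Mx2, Rsad2 and Bst2. All 10 were found among the 35958 features of the gene table, and 10 of 10 passed the filter on low values that 15767 features passed. They were measured by polyA RNA sequencing with 150-base paired reads in pieces of WEHI 164 tumors, a fibrosarcoma line of the mouse, raised subcutaneously in wild-type female BALB/c mice, which the study used at 8 to 12 weeks of age. At surgery 75% of each tumor was taken out, and the sequenced piece had met no treatment. A hydrogel loaded with poly(I:C), a synthetic double-stranded RNA, was then laid on the remaining tumor. The 5 responders (tumors 5, 9, 10, 11 and 12) later lost their tumor completely, and the 5 non-responders (tumors 1, 2, 3, 6 and 7) showed no delay in growth. Each tumor came from its own mouse, so the spread within a group is that between mice bearing 1 transplanted line. A responder tumor had 16002778 to 31160578 estimated counts in total and a non-responder tumor 19863697 to 28275958. The labels name no sequencing batch, and since 4 of the 5 responders carry the highest tumor numbers, the order of collection, if the numbers record it, and the response cannot be told apart.

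Type I interferons bind the receptor IFNAR and activate the kinases JAK1 and TYK2, which set off the assembly of the transcription factor ISGF3. ISGF3 binds interferon-stimulated response elements in promoters and switches on effectors that block viruses at successive steps. IFIT proteins bind viral RNA and hinder its translation, ISG15 is a ubiquitin-like protein that is coupled to other proteins, and USP18 removes ISG15 and dampens signaling at the receptor. Mx proteins are large GTPases that trap viral components, viperin (Rsad2) makes a nucleotide that ends viral RNA chains, and tetherin (Bst2) holds budding virions on the cell surface. In tumors the same genes are read as a record of interferon signaling, and poly(I:C), sensed by TLR3 and MDA5, can induce them. The comparison therefore asks whether tumors that later responded already carried more of these transcripts at resection.

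The pieces expressed the mesenchymal genes listed as markers of a fibrosarcoma, and 7 of 7 passed the filter. Vim, for vimentin, led them at 4761 CPM (read counts scaled to a common library size after TMM normalization). Tumor cells and host cells were not separated. Of 5 keratinocyte genes Krt1 was at 0 in every tumor, and Krt5 and Krt14 had at most 6 and 7 counts. Krt10 and Dsp passed the filter with at most 94 and 397 counts. Responder 5 was the lowest of the responders in NK cell and T cell markers. Its mean log2(CPM + 1) over 5 NK cell markers was 1.85, while the other responders had 2.87 to 3.43, and over 6 T cell markers it was 1.54, where they had 2.29 to 2.75. The effectors, their correlations and the medians of the pathway lists are given with and without it. The values describe bulk tissue, in which fewer cells of a type and less RNA per cell cannot be told apart.

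Every effector was transcribed in every tumor, with 169 counts or more for the scarcest, Ifit3b, and up to 7331 for Bst2. Per kilobase of the longest annotated transcript, Bst2 stood first at 250.8 ± 32.8 CPM per kb (SD, n = 10), and its range over the tumors did not overlap that of Isg15 at 60.6 ± 8.93. Isg15 in turn did not overlap Ifit3 at 20.5 ± 2.94. Ifit3, Ifit1 at 18.4 ± 3.55, Usp18 at 17.6 ± 2.70 and Ifit2 at 17.5 ± 2.18 formed a middle group whose ranges overlapped. Compared within each tumor, Ifit3 exceeded Ifit1 in 10 of 10, Ifit1 exceeded Usp18 in 6 and Usp18 exceeded Ifit2 in 5. Below them lay Rsad2 at 11.02 ± 1.98, Mx1 at 8.79 ± 1.36, Mx2 at 5.80 ± 0.777 and Ifit3b at 5.32 ± 1.12 CPM per kb. Rsad2 did not overlap Ifit2 above it. Within each tumor Rsad2 exceeded Mx1 and Mx1 exceeded Mx2 in 10 of 10, and Mx2 exceeded Ifit3b in 7 of 10. The order of Ifit3 and Ifit3b rests on how reads were split between them, since 61.8% of the 31-base words of Ifit3 transcripts also occur in Ifit3b.

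The promoters are shown because ISGF3 is known to act on genes of this kind, and their part in the levels was not tested. RefSeq windows on GRCm38, from 250 bases before to 50 after a gene's start, were at hand for 7 of the 10 genes, all but Usp18, Mx1 and Mx2. The core of the interferon-stimulated response element was searched on both strands as GAAA, any 2 bases, then GAAA, which reads TTTC, any 2 bases, TTTC on the other strand. It was found for 6 of these 7 genes, and 3.44% of 32851 such windows hold it. Ifit2 was the gene without these letters in its windows. The stretches below run from 20 bases before the first match to 20 after the last, 5′ to 3′ on the strand of the gene, with both 4-base blocks of each match in capitals and neighboring matches allowed to share a block.
Ifit1, chr19:34640765-34640833, plus strand: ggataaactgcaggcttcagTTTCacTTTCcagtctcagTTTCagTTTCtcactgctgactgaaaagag
Ifit3, chr19:34583353-34583436, plus strand: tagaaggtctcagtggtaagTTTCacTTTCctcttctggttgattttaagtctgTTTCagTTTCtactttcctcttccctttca
Isg15, chr4:156200855-156200916, minus strand: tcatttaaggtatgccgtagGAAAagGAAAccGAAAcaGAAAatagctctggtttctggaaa
Rsad2, chr12:26456543-26456592, minus strand: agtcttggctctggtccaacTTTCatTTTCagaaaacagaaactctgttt
Bst2, chr8:71537567-71537622, minus strand: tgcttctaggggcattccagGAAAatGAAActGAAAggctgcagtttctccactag
The Ifit3b stretch, chr19:34607749-34607832 on the plus strand, is identical to that of Ifit3 over all 84 bases. Isg15 holds 3 matches that overlap end to end, Bst2 holds 2 that overlap, and Ifit1 and Ifit3 each hold 2 separate matches. The match nearest to a start ends 57 bases before it, in Isg15, and the farthest among the genes printed begins 156 bases before it, in Ifit3. A match is a run of letters and was not tested for binding.

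No antiviral effector passed the test between tumors that later responded and tumors that did not, and the differences between the group means were small. Of the 10 genes 7 had a log2 fold change (responders over non-responders) above 0 and 3 below, with a median of 0.03. Over all features tested the median was -0.0036 and 48.6% lay above 0. By the quasi-likelihood test of edgeR, adjusted after Benjamini and Hochberg, 0 of 10 effectors had an adjusted p under 0.05, where the share of all features was 0% (0 of 15767), and their adjusted p ran from 0.591 to 0.996. DESeq2 called 1 feature, the collagen gene Col6a2, which is named here because it was the only call, and limma-voom called 0. At an unadjusted p under 0.05 the effectors gave 1 gene, Bst2, against 8.21% of all features (1295) in either direction and 4.21% higher in responders. For 0 of 10 effectors did the groups separate without overlap, against 0.926% of all features. The 95% intervals of the fold differences reached from 0.759 to 1.32, so that larger differences between the group means lie outside the interval of each gene.

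**Figure D1:**
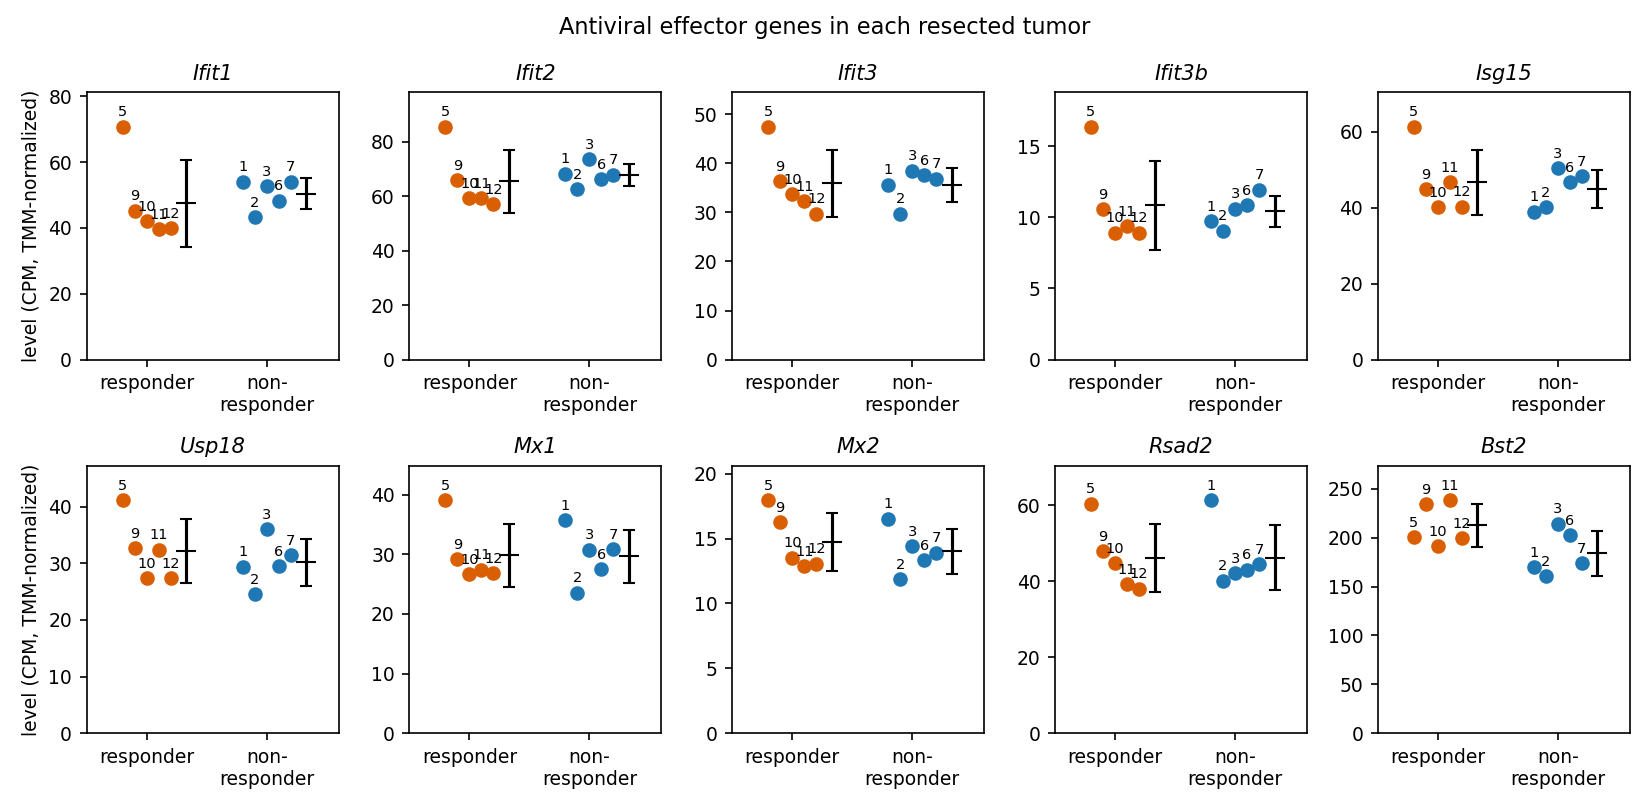
Level of each antiviral effector gene in CPM (TMM-normalized, linear axis from 0) in the 5 responders and 5 non-responders, each point a tumor with its number, with the group mean and SD in black. Tumor 5 is the highest point in every panel except those of Rsad2 and Bst2, and the groups overlap in all 10 panels.

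The IFIT genes lie together on chromosome 19 of GRCm38, with Ifit2 from 34550694 to 34576419, Ifit3 from 34583531 to 34588731, Ifit3b from 34607970 to 34613401 and Ifit1 from 34640871 to 34650009, on the plus strand. Ifit1, whose protein recognizes viral RNA caps, had 70.7, 45.2, 42.1, 39.6 and 39.9 CPM in responders 5, 9, 10, 11 and 12. In non-responders 1, 2, 3, 6 and 7 it had 54.1, 43.2, 52.6, 48.3 and 54.0 CPM. A single responder lay above every non-responder, and 3 of the other responders lay below every one of them. The means were 47.5 ± 13.2 and 50.4 ± 4.67 CPM (SD, n = 5 each), and the log2 fold change was -0.09 (standard error 0.14, edgeR adjusted p = 0.905). Ifit2 ran the same course, with 85.5, 66.0, 59.4, 59.3 and 57.1 CPM in those responders and 68.4, 62.7, 73.6, 66.3 and 67.9 CPM in those non-responders. Responder 5 was again at the top and responders 10, 11 and 12 at the bottom, with a log2 fold change of -0.05 (standard error 0.10, edgeR adjusted p = 0.920).

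Ifit3, which stabilizes IFIT complexes, had 47.4, 36.4, 33.7, 32.3 and 29.7 CPM in responders and 35.6, 29.8, 38.5, 37.6 and 36.8 CPM in non-responders, in the same order of tumors. Its near-identical copy Ifit3b had 16.4, 10.6, 8.93, 9.40 and 8.93 CPM in responders and 9.72, 9.07, 10.6, 10.8 and 11.9 CPM in non-responders. In both genes responder 5 was highest and the other responders lay among or below the non-responders. The log2 fold changes were 0.01 for Ifit3 (standard error 0.11, edgeR adjusted p = 0.990) and 0.06 for Ifit3b (standard error 0.16, adjusted p = 0.950). Ifit3b made up 20.9% to 25.6% of the reads of the pair, with the highest share in responder 5. Summed to 1 feature, a measure that does not depend on how reads were split between the copies, the pair had a log2 fold change of 0.02 (edgeR adjusted p = 0.978).

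Isg15 lies on chromosome 4 from 156199424 to 156200818 on the minus strand. It had 61.3, 44.9, 40.2, 46.7 and 40.3 CPM in responders 5, 9, 10, 11 and 12 and 39.0, 40.2, 50.5, 46.8 and 48.3 CPM in non-responders 1, 2, 3, 6 and 7. Apart from responder 5 the responders fell inside the span of the non-responders. The means were 46.7 ± 8.66 and 44.9 ± 5.06 CPM (SD, n = 5 each), and the log2 fold change was 0.06 (standard error 0.11, edgeR adjusted p = 0.920). Of its 31-base words 10.2% also occur in the gene AC151275.1, with which estimated counts may be shared. Usp18, the protease that takes ISG15 off its targets, lies on chromosome 6 from 121245906 to 121270917 on the plus strand, where Gm44148 overlaps it on the opposite strand. It had 41.1, 32.6, 27.4, 32.4 and 27.4 CPM in responders and 29.4, 24.5, 36.0, 29.5 and 31.5 CPM in non-responders. Here responder 5 was highest and non-responder 2 lowest, and the log2 fold change was 0.10 (standard error 0.12, edgeR adjusted p = 0.860).

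The Mx genes lie side by side on chromosome 16, Mx1 from 97447035 to 97462907 on the minus strand and Mx2 from 97535308 to 97560900 on the plus strand. Many inbred mouse strains carry Mx alleles that make no working protein, and the annotation lists Mx2 as a polymorphic pseudogene, so these transcript levels do not tell of working protein. Mx1 had 39.0, 29.2, 26.7, 27.4 and 26.8 CPM in responders and 35.7, 23.5, 30.7, 27.5 and 30.8 CPM in non-responders. Mx2 had 17.9, 16.3, 13.5, 12.9 and 13.1 CPM in responders and 16.5, 11.9, 14.4, 13.3 and 13.9 CPM in non-responders. In both, the order ran from responder 5 and non-responder 1, the first and second highest tumors, down to non-responder 2. The log2 fold changes were 0.01 for Mx1 (standard error 0.12, edgeR adjusted p = 0.992) and 0.07 for Mx2 (standard error 0.11, adjusted p = 0.893).

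Rsad2 lies on chromosome 12 from 26442746 to 26456452 on the minus strand. It had 60.5, 47.9, 44.7, 39.2 and 38.1 CPM in responders 5, 9, 10, 11 and 12 and 61.3, 40.2, 42.2, 43.1 and 44.6 CPM in non-responders 1, 2, 3, 6 and 7. A single tumor stood high in each group, responder 5 and non-responder 1, and the remaining tumors of both groups lay together. The means were 46.1 ± 8.98 and 46.3 ± 8.56 CPM (SD, n = 5 each), and the log2 fold change was -0.01 (standard error 0.14, edgeR adjusted p = 0.996).

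Bst2 was the effector with the largest difference between the groups. It lies on chromosome 8 from 71534255 to 71537456 on the minus strand, and its transcripts share none of their 31-base words with other genes. It had 200.5, 234.6, 191.5, 238.3 and 199.6 CPM in responders 5, 9, 10, 11 and 12 and 169.9, 160.5, 214.4, 202.5 and 174.2 CPM in non-responders 1, 2, 3, 6 and 7. Responders 9 and 11 lay above every non-responder, while the other responders lay within their range. The means were 213 ± 21.8 and 184 ± 23.0 CPM (SD, n = 5 each), a fold of 1.16 (95% interval 1.01 to 1.32) and a log2 fold change of 0.21 (standard error 0.09). The unadjusted p was 0.034 by edgeR and 0.0794 by the exact two-sided permutation test, and the edgeR adjusted p was 0.591. The smallest p that this exact permutation test can give with 5 tumors against 5 is 0.00794, and over the 10 effectors its p ran from 0.0794 to 0.976. With the pan-leukocyte marker level as a covariate the log2 fold change of Bst2 was 0.13 (edgeR adjusted p = 0.999). Bst2 protein also marks plasmacytoid dendritic cells in mice, and 5 of 5 markers of that cell type had a log2 fold change above 0, that of Ccr9, named after its value was seen, at 0.02 with near-equal means, and 0 of them had an unadjusted p under 0.05. Their mean log2(CPM + 1) was 1.52 ± 0.34 in responders and 1.38 ± 0.33 in non-responders (SD, n = 5 each), the most abundant, Siglech, averaged 2.65 CPM over the tumors, and none was at 0 throughout. In responder 9, high for Bst2, their level was 1.27, below the mean of both groups, and in responder 11 it was 1.81; their part in the result was not tested.

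**Figure D2:**
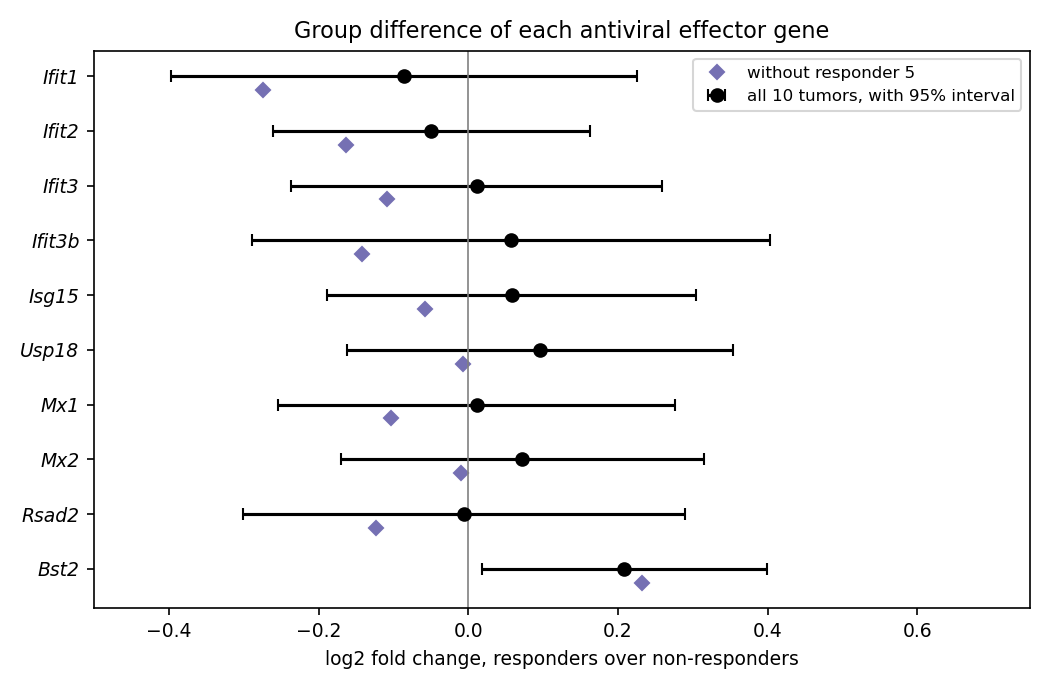
Log2 fold change of each antiviral effector gene, responders over non-responders, with its 95% interval from edgeR over all 10 tumors (black) and its value without responder 5 (diamonds). Intervals of 9 genes span 0 and that of Bst2 starts just above it, and without responder 5 every gene except Bst2 lies below 0.

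Responder 5 carried the responder mean for most of these genes. It was the highest of the 10 tumors for 8 of 10 effectors and second highest for Rsad2, and its mean log2(CPM + 1) over the 10 genes was 5.68. The other responders ranged from 5.12 to 5.35 and the non-responders from 5.08 to 5.38. The group means were 5.31 ± 0.23 in responders and 5.29 ± 0.12 in non-responders (SD, n = 5 each). They were 0.0237 apart, and without responder 5 the difference was -0.0700. Without responder 5, 9 of 10 effectors had a log2 fold change below 0, with a median of -0.11. Ifit1 then stood at -0.27 (edgeR adjusted p = 0.133), Ifit2 at -0.16 (adjusted p = 0.241) and Bst2 at 0.23 (adjusted p = 0.303). These 3 of 10 effectors had an unadjusted p under 0.05 in that fit, in which 13.6% of all features did. Of the 10 tumors, non-responder 2 was lowest for 4 effectors, Usp18, Mx1, Mx2 and Bst2, and responder 12 for 3, Ifit2, Ifit3 and Rsad2.

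Across the tumors most effectors other than Bst2 were correlated with each other, in large part through responder 5. Correlations of log2(CPM + 1) were computed for all 45 pairs of the 10 genes over the 10 tumors, with permutation tests adjusted over the 45 pairs. Among the 36 pairs without Bst2, Pearson's r ran from 0.302 to 0.961 with a median of 0.800, and 31 pairs had an adjusted permutation p under 0.05. Spearman's rho had a median of 0.752 in these pairs, and 21 had an adjusted permutation p under 0.05. After each group's mean was subtracted, the median r was 0.828 and 31 pairs were under 0.05. Without the 2 tumors farthest from the median of the first gene of a pair, the median r was 0.599, and it was above 0 in 35 of the 36 pairs.

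Ifit1 and Ifit2 were the closest pair (Pearson's r = 0.961, Spearman's rho = 0.952, n = 10, adjusted permutation p = 0.0027 and 0.0045). Mx1 with Mx2 reached r = 0.909 and rho = 0.867 (adjusted permutation p = 0.0033 and 0.0208), and Isg15 with Usp18 reached r = 0.903 and rho = 0.818 (adjusted permutation p = 0.0033 and 0.0300). The weakest pair without Bst2 was Isg15 with Rsad2, at r = 0.302 and rho = -0.0061 (adjusted permutation p = 0.461 for r). Ifit3 and Ifit3b had r = 0.916 and Mx1 and Mx2 share 7.22% of the words of Mx1, so parts of these relations could come from reads that both genes claim, which was not tested. The relations rested in large part on responder 5: without it the median r of the 36 pairs was 0.618, and 1 of all 45 pairs, Ifit1 with Ifit2, had an adjusted p under 0.05 by the exact permutation test (r = 0.910, adjusted p = 0.0443, n = 9). In the 9 pairs with Bst2, r ran from -0.204 to 0.509 with a median of 0.0791, and 0 had an adjusted permutation p under 0.05. Without the 2 farthest tumors the median r of these 9 pairs was 0.406, and it was above 0 in 7 of them. Usp18 with Bst2 had r = 0.509 and rho = 0.685 (adjusted permutation p = 0.178 and 0.0681), and r = 0.654 without responder 5. After each group's mean was subtracted, rho of that pair was 0.721 (adjusted permutation p = 0.0441). Whether the pairs with Bst2 differ from the other pairs was not tested.

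**Figure D3:**
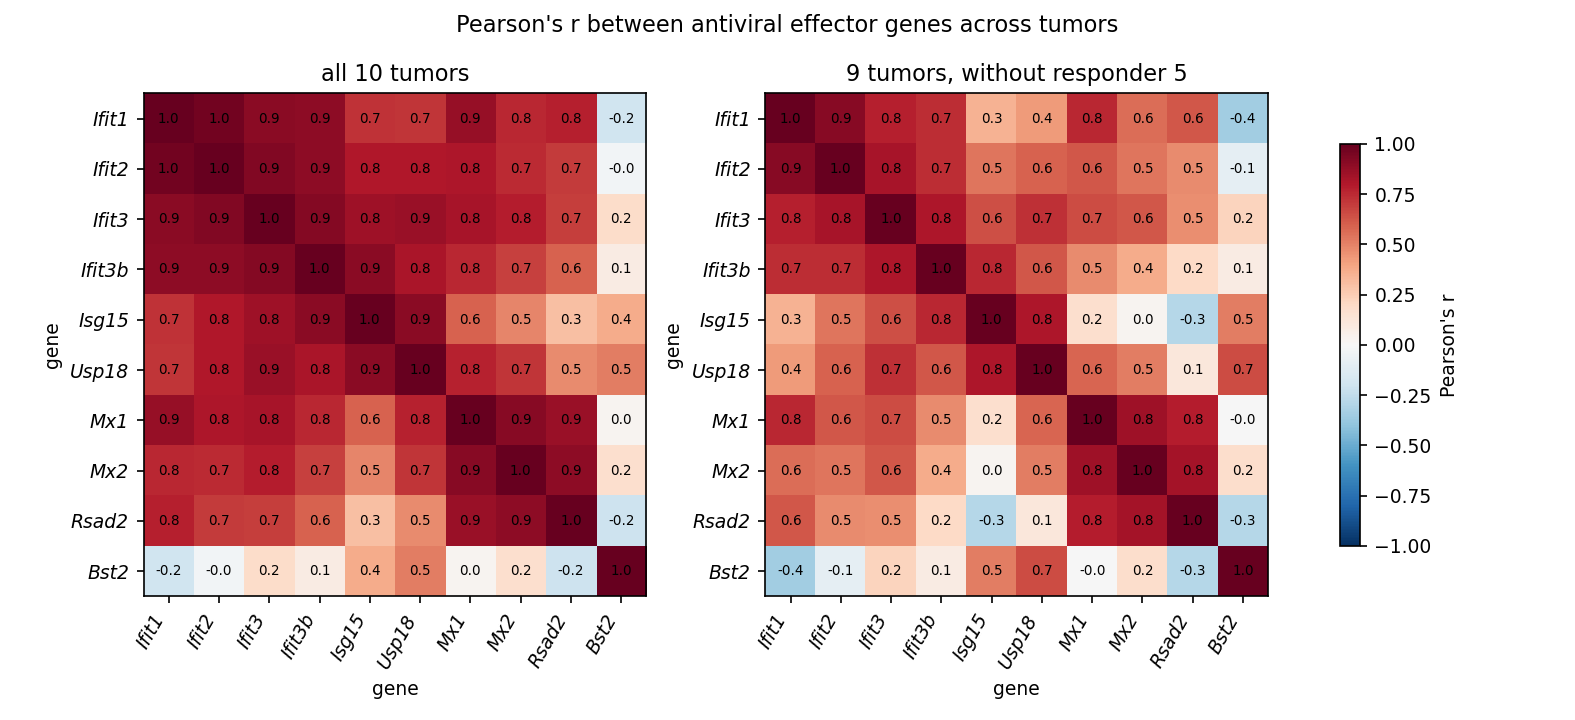
Pearson's r of log2(CPM + 1) between antiviral effector genes across all 10 tumors (left) and across 9 tumors without responder 5 (right), on a color scale from -1 to 1. The 9 genes other than Bst2 form a block of positive values on the left that is paler on the right, with a median r of 0.800 and 0.618.

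Outside the 10 genes, those whose levels most resembled the mean standardized level of the effectors were, by Pearson's r over the 10 tumors and given as a description, Ifih1 at 0.944, Traf5 at 0.892, Tlr3 at 0.878 and Ifi44 at 0.871. Cmpk2 at 0.866, Ugt3a1 at 0.863, Zscan18 at 0.860 and Vps54 at 0.855 followed. Ifih1 encodes MDA5 and Tlr3 a receptor, the sensors of double-stranded RNA through which poly(I:C) acts, and Cmpk2 is the neighbor of Rsad2 in the genome. All 8 were highest in responder 5, the tumor that drives the mean, and without it their r ran from 0.698 for Ugt3a1 to 0.875 for Ifih1. Ugt3a1 and Zscan18 were scarce, at no more than 0.699 and 1.20 CPM. Between the groups Ifih1 had a log2 fold change of -0.01 (edgeR adjusted p = 0.995) and Tlr3 of 0.10 (adjusted p = 0.787).

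The pathway around the effectors was followed in 7 lists of genes, in which edgeR gave 0 genes with an adjusted p under 0.05. Upstream, 19 of 20 interferon ligand genes did not pass the filter. Of these, 11 were at 0 in every tumor, among them Ifna1 and Ifna5, where a count of 0 allows up to 3 counts, or 0.0963 to 0.187 CPM by the depth of the tumor (counting error only). Ifnb1 and Ifne reached at most 4 counts in a tumor, Ifna2, Ifna4, Ifna16, Ifnab and Ifnz at most 2, and Ifnk at most 1. Transcripts of the ligands of the type I pathway were thus at the limit of what this depth can show. The ligand that passed was Ifng, for interferon gamma, at 2.55 ± 0.965 CPM in responders and 1.42 ± 0.517 in non-responders (SD, n = 5 each), with a log2 fold change of 0.86 (standard error 0.30, unadjusted p = 0.0144 and adjusted p = 0.580 by edgeR). With the pan-leukocyte marker level as a covariate its log2 fold change was 0.40.

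Among 9 sensors and inducers 6 had a log2 fold change above 0, with a median of 0.06, and 1, Zbp1, a sensor of Z-form nucleic acid, had an unadjusted p under 0.05, against 8.21% of all features (log2 fold change 0.45, edgeR adjusted p = 0.580). Irf3, the factor that sensors activate, had 0.08 (adjusted p = 0.665), and Ticam1, the adaptor of TLR3, had -0.08 (adjusted p = 0.777). Of the 7 genes of the type I receptor and ISGF3 6 lay above 0, against 48.6% of all features, with a median of 0.16. With the pan-leukocyte marker level as a covariate that median was 0.03. Stat2 and Irf9, genes of ISGF3 components, had log2 fold changes of 0.23 (edgeR adjusted p = 0.615) and 0.18 (adjusted p = 0.607).

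The enzymes that couple ISG15 to proteins had log2 fold changes above 0 in 4 of 4 cases, with a median of 0.20 and 0 genes at an unadjusted p under 0.05. These were 0.18 for the activating enzyme Uba7, 0.23 for the conjugating enzyme Ube2l6, 0.21 for the ligase Herc6 and 0.04 for Trim25, with edgeR adjusted p from 0.620 to 0.878. The close relatives of Ifit1 and the neighbor of Rsad2 all lay below 0, with -0.63 for Ifit1bl1 (adjusted p = 0.587), -0.22 for Ifit1bl2 (adjusted p = 0.866) and -0.06 for Cmpk2 (adjusted p = 0.928). Their median was -0.22, and 0.03 with the pan-leukocyte marker level as a covariate. Ifit1bl1 had an unadjusted p under 0.05 and at most 37 counts in a tumor, and Ifit1bl2, which shares 9.16% of the words of Ifit1, at most 93. Of 26 other antiviral interferon-stimulated genes 24 lay above 0, with a median of 0.12, and 4 had an unadjusted p under 0.05, all higher in responders. Of all features 48.6% lay above 0 and 4.21% were higher in responders at that p. Among those with the smallest p were Ifitm3, which blocks virus entry, at 0.22 (edgeR adjusted p = 0.580) and Xaf1 at 0.31 (adjusted p = 0.591).

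Genes induced mainly by interferon gamma had a higher median log2 fold change than the antiviral effectors. All 12 had a higher mean in responders, with a median log2 fold change of 0.37 against 0.03 for the effectors, and 6 of 12 had an unadjusted p under 0.05, all higher in responders, where 4.21% of all features did. Nos2, which makes nitric oxide, had 1.16, Ido1, which degrades tryptophan, had 0.70, and the transcription factor gene Irf1 had 0.41 (edgeR adjusted p = 0.580 for each). With the pan-leukocyte marker level as a covariate the median of the list was 0.17 and that of the effectors 0.09. The difference between the list and the effectors was not tested. Without responder 5 the medians were 0.45 for this list, -0.01 for the sensors and inducers, 0.06 for the other antiviral genes, 0.17 for the receptor and ISGF3 genes, 0.18 for the ISG15 enzymes, -0.55 for the IFIT paralogs and Cmpk2 and 1.02 for Ifng. In responder 5, the highest tumor for the effectors, the mean log2(CPM + 1) of the list was 6.97, the lowest of the responders, the others being at 7.20 to 7.75, and the non-responders ran from 6.33 to 7.30.

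**Figure D4:**
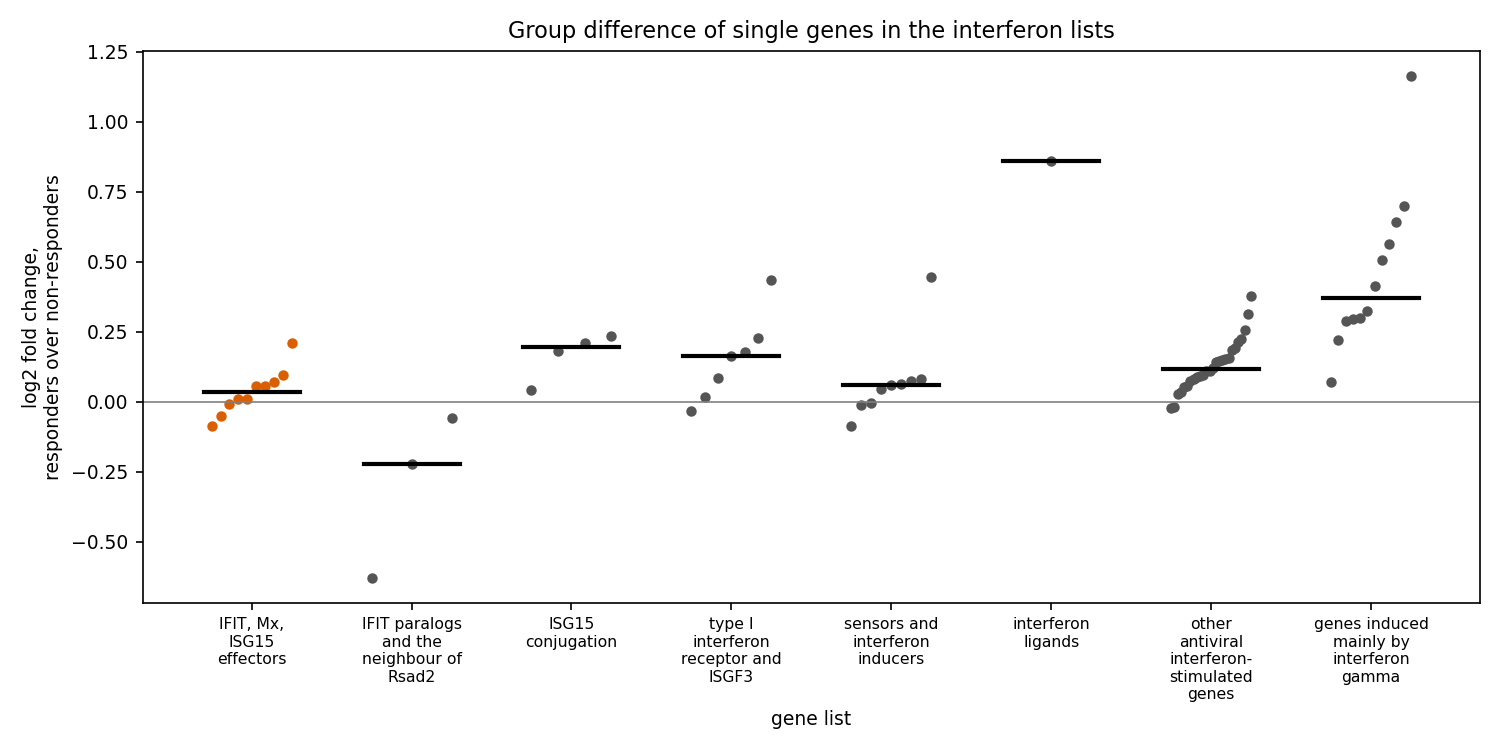
Log2 fold change, responders over non-responders, of each gene in the antiviral effector group (orange) and in 7 lists of the interferon pathway (grey), with the median of each list as a bar. The effectors lie around 0 with a median of 0.03, and the 12 genes induced mainly by interferon gamma all lie above 0 with a median of 0.37.

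After these values had been seen, each effector was correlated over the 10 tumors with the mean level of the interferon gamma list and of 6 pan-leukocyte markers, 20 relations in all, with p adjusted over the 20. Bst2 gave Pearson's r = 0.824 with the interferon gamma list (permutation p = 0.0035, adjusted p = 0.0700) and Spearman's rho = 0.758 (permutation p = 0.0147, adjusted p = 0.294). After each group's mean was subtracted r was 0.729 (permutation p = 0.0227, adjusted p = 0.454), without the 2 farthest tumors it was 0.646, and without responder 5 it was 0.831. The other 9 effectors had r from -0.288 to 0.337 with that list. With the pan-leukocyte markers Bst2 had r = 0.629 and rho = 0.527 (permutation p = 0.0519 and 0.122, adjusted p = 0.519 and 0.776), and the other 9 had r from -0.533 to -0.0303. No relation of the 20 had an adjusted p under 0.05.

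**Figure D5:**
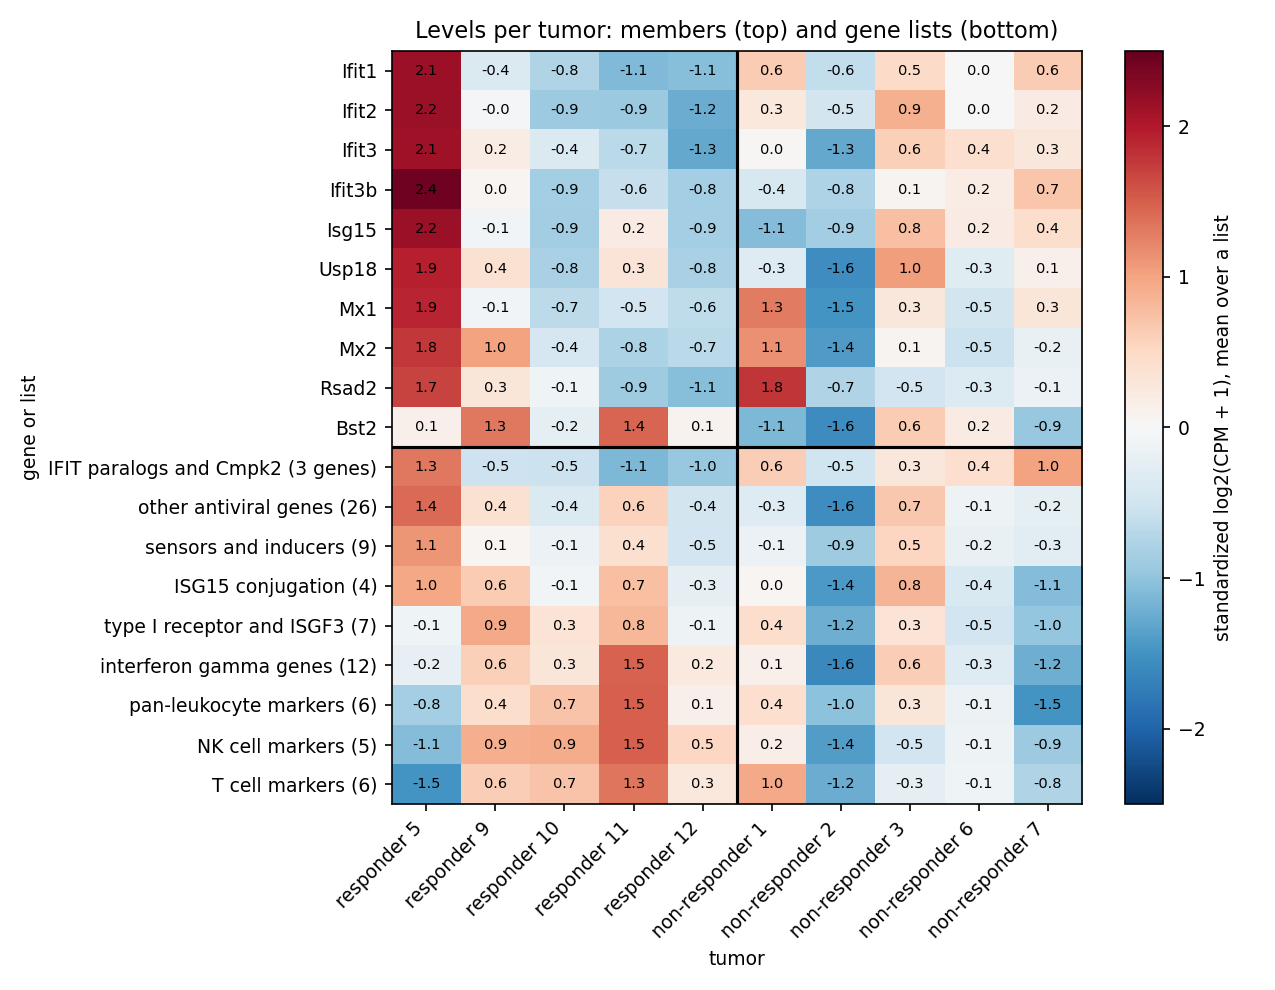
Standardized log2(CPM + 1) of the 10 antiviral effector genes (top) and mean standardized level of 9 gene lists (bottom) in each tumor, responders to the left of the line, with 0 as the mean of the 10 tumors. Responder 5 is high for the effectors other than Bst2 and low for the leukocyte, NK cell and T cell markers, while responder 11 is high for Bst2, the interferon gamma genes and those markers.

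Markers of other cell types were compared beside the effectors, and 0 of them had an adjusted p under 0.05 by edgeR. Of 6 pan-leukocyte markers 6 had a higher mean in responders, 2 at an unadjusted p under 0.05 (4.21% of all features were higher at that p), with a summed level of 769.5 ± 96.8 CPM in responders and 671 ± 84.3 in non-responders (SD, n = 5 each), led by Lcp1. The summed NK cell markers, led by Prf1, for perforin, had 60.4 ± 27.2 and 27.0 ± 10.1 CPM, with Klra8 at 0 in every tumor, and 4 of the 5 markers past the filter had an unadjusted p under 0.05, all higher in responders. Responder 5 had 18.6 CPM of these markers and the other responders 61.1 to 94.96. Summed T cell markers, led by Cd4, had 28.2 ± 9.85 and 21.3 ± 7.65 CPM, and macrophage markers, led by C1qa, 1320 ± 170 and 1186 ± 151 CPM, with 0 genes of either list at an unadjusted p under 0.05. Monocyte markers, led by Ccr2, had 185.6 ± 11.4 and 187.5 ± 27.0 CPM. Of these 4 genes 2 had an unadjusted p under 0.05 by edgeR, 1 of them higher in responders. Neutrophil markers, led by Csf3r, had 32.8 ± 12.1 and 21.6 ± 6.13 CPM. All 4 past the filter were higher in responders, 1 at such a p. Conventional dendritic cell, B cell and adipocyte markers, led by Itgax, Cd79b and Fabp4, had 0 genes at such a p. Mesenchymal markers summed to 10570 ± 422 CPM in responders and 11180 ± 737 in non-responders, and 2 of 7 had an unadjusted p under 0.05, both lower in responders. Endothelial markers, led by Pecam1, summed to 157 ± 8.18 and 172 ± 13.8 CPM, with 3 of 5 at an unadjusted p under 0.05, and skeletal muscle markers, led by Acta1, to 106 ± 45.9 and 143 ± 39.9 CPM, with 2 of 5. The endothelial and muscle genes at such a p were all lower in responders, while Pecam1 itself had a log2 fold change of 0.09 (edgeR adjusted p = 0.751). Of all features 8.21% had such a p in either direction. Responder 5, highest for 8 effectors, had 639 CPM of summed pan-leukocyte markers, against 724 to 901.5 in the other responders. The part of these cell types in the effector levels was not tested.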

How the data were processed

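The authors estimated transcript abundances with Kallisto 0.43.0 on mm10 (GRCm38) and summed them to genes with tximport, and what they deposited are these estimated counts, not normalized. The annotation release is not given in the sources used here. From these, rows of 1 name were summed (44 names on several rows), the 9580 of 36009 rows without a name each stayed a feature, and counts were rounded. Features with CPM above 0.366 in at least 3 tumors were tested with edgeR 4.0.16 (TMM, quasi-likelihood, Benjamini-Hochberg over 15767 features, threshold 0.05) in R 4.3.3. A standard error is the absolute log2 fold change divided by the root of edgeR's F. The biological coefficient of variation was 10.4%, and p-values measure the spread between mice. DESeq2 1.42.0, limma 3.58.1, other normalizations, filters and pseudocounts, a leukocyte covariate and leaving out each tumor were alternatives. Correlations used a pseudocount of 1 and 100000 permutations, or all permutations for 9 tumors. Positions and lengths are from GENCODE on GRCm38, promoters from RefSeq on GRCm38.p6. Tumor numbers are unique, so nothing pairs the groups. The edgeR code was tested on simulated data. The members, lists and tests were chosen with earlier results of these data known. Genes named are the members, the 3 genes of smallest p in each pathway list (all in lists of up to 4, and every ligand with counts), the most abundant gene of a marker list and the 8 nearest in pattern. Of the genes the rule picks, 2 are not reported here. Other genes are named as such.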

Additional observations from a re-analysis of the deposited data

Results flagged for a closer look

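In 11 of 146 sets of 5 tumors (73 measures, each in both groups), the highest or lowest tumor was separated from its neighbor by more than 0.71 of the range of the set. By chance about 7.3 would be (1 in 20). In 5 of them the tumor was responder 5. Its log2(CPM + 1) was 6.16 for Ifit1, against 5.34 to 5.53 in the other responders, 4.12 for Ifit3b, against 3.31 to 3.53, and 5.32 for Mx1, against 4.79 to 4.92. The mean level of the IFIT paralogs and Cmpk2 was 2.98 in responder 5, against 2.30 to 2.49, and Prf1 was low there, at 3.66 against 5.44 to 6.08. These genes vary together, so the values are not independent of each other. Rsad2 was 5.96 in non-responder 1, against 5.37 to 5.51 in the other non-responders, and Ifit1bl1 was 0.948 in non-responder 2, against 1.27 to 1.34. Responder 11 stood apart with 6.54 for Ido1, against 5.74 to 5.96 in the other responders, 12.46 for Vim, against 12.17 to 12.20, and 4.68 for the mean level of the monocyte markers, against 4.474 to 4.504. Irf3 was 5.46 in responder 12, against 5.54 in the other responders, a narrow range.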

How the results depend on the processing

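Over the alternatives, 0 of the 10 effectors had an adjusted p under 0.05. DESeq2 called 1 feature of all tested (Col6a2), and leaving out a tumor gave 0 to 9, the 9 without responder 5. With the leukocyte covariate 0 effectors had an unadjusted p under 0.05, and leaving out a tumor gave 0 to 3. The log2 fold changes of Ifit1, Ifit2 and Rsad2 changed sign with the covariate, to 0.0263, 0.0195 and 0.0247, and those of 7 effectors changed sign when a tumor was left out. Their ranges were -0.1093 to 0.0729 for Ifit3, -0.1422 to 0.1206 for Ifit3b, -0.0583 to 0.1085 for Isg15, -0.0068 to 0.1676 for Usp18, -0.1039 to 0.0866 for Mx1, -0.0094 to 0.139 for Mx2 and -0.123 to 0.1161 for Rsad2. Bst2 stayed above 0 in every fit, at 0.1623 to 0.2707 with a tumor left out. The median over the effectors ran from -0.1066 without responder 5 to 0.0901 without responder 12. The number of correlated pairs ran from 1 without responder 5 to 36 without non-responder 1. With the covariate the medians were 0.03144 for the IFIT paralogs and Cmpk2, 0.03281 for the receptor and ISGF3 genes and 0.4036 for Ifng. The paralog median ran from -0.5506 to -0.0781 with a tumor left out. The causes were not tested. Other normalizations, filters and row handling changed no sign among the effectors, and other pseudocounts, run for the mean level and the pairs, left the difference above 0 and 31 pairs. Leaving out tumors for the mean level and the pairs was chosen after seeing the data. Depth limits the interferon ligands, the IFIT paralogs and the rarest marker genes. Estimated counts carry an assignment error between Ifit3 and Ifit3b that was not measured here.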
